A study of Homo sapiens with 18 samples.

Results

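TAZ, encoded by WWTR1, was knocked down with siRNA in H1299 cells, and the transcriptome was compared with that of H1299 cells given a control siRNA. H1299 is a human lung carcinoma line taken from a lymph node metastasis. Of the 18 RNA-seq libraries of the series, 6 entered the comparison: the 3 titled as siTAZ and the 3 titled as siControl in this line. Another 3 H1299 libraries, given an siRNA against YAP (siYAP), shared the estimate of the spread and served as the nearest experiment to set beside it, while A549 libraries were not analysed here. All 3 groups had been transfected with 30 nM of siRNA for 48 h in RPMI-1640 with serum and antibiotics, had gone without serum for the final 18 h, and by the labels differed in the siRNA alone. Each siRNA was a SMARTpool, a mixture of siRNAs for 1 transcript, and no second reagent against TAZ was given, so effects of TAZ loss and of that pool on other transcripts cannot be told apart. The labels do not say whether replicates came from separate cultures, and the p-values then cover only variation among these libraries, which may be technical.

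TAZ, the product of WWTR1, and its paralog YAP, the product of YAP1, are coactivators without DNA binding of their own. They enter the nucleus and bind TEAD factors unless the kinases of the Hippo pathway, MST and LATS, phosphorylate them, a step that adaptor proteins such as NF2 promote. In epithelial tumours, lung cancer among them, YAP and TAZ are known to drive proliferation genes, matricellular proteins such as CYR61 and CTGF, and genes of invasion and metabolism.

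The siTAZ libraries held 18.4, 19.2 and 19.2 M assigned reads, against 18.1, 16.8 and 18.5 M for siControl, and siYAP had 18.8 to 20.8 M. Levels are in CPM, assigned reads per M after TMM scaling, in the order of replicates 1, 2 and 3, and values written with ± beside an adjusted p are log2 changes with their SE, of siTAZ minus siControl unless siYAP is named. Mitochondrial transcripts took 8.63 to 11.5% of reads under siTAZ and 8.01 to 11.1% under siControl. Over the 6 libraries, the first principal component (52.4% of the variance) separated siTAZ from siControl, and the second (22.5%) set replicate 2 of both groups apart from replicates 1 and 3. Keratin 8 (KRT8), an epithelial marker, had 139.7, 185 and 157 CPM under siTAZ and 153, 182 and 155 CPM under siControl, and vimentin (VIM), a mesenchymal marker, had 2619.9, 3263 and 2574 CPM under siTAZ and 2929, 3507 and 2838 CPM under siControl. These genes alone do not identify the line, and the keratin KRT18 was called lower, as given below. KRT8 and VIM each overlap another listed gene. Of 10 leukocyte markers 3 were in the table, and ITGAM alone passed the filter, at 7.45, 3.86 and 4.21 CPM under siTAZ and 3.38, 3.75 and 1.68 CPM under siControl (adjusted p = 0.0746). ITGAM was called higher with the replicate number as a block, and also without siControl 2 or without siTAZ 2.

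WWTR1 (chromosome 3, 149517235 to 149736714, GRCh38) stood at 36.1, 82.6 and 29 CPM under siTAZ, against 265, 276 and 229 CPM under siControl. The siTAZ libraries thus kept 14.1%, 32.2% and 11.3% of the control mean (log2 change -2.38 ± 0.28, adjusted p = 0.000334 in edgeR's quasi-likelihood test with Benjamini-Hochberg adjustment, which gives every adjusted p here). The groups did not overlap, and siTAZ 2 was the least reduced library. YAP1 (chromosome 11, 102110461 to 102233423) had 96.4, 106 and 100.4 CPM under siTAZ, against 83.5, 83.8 and 77.8 CPM under siControl. Its log2 change of 0.30 ± 0.13 missed the threshold (adjusted p = 0.117) and passed it with the replicate number as a block (adjusted p = 0.0316), all 3 siTAZ libraries lying above all 3 controls.

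Transcripts changed in both directions. Of 15775 genes tested, 3680 (23.3%) were called at an adjusted p below 0.05, with 1717 higher (10.9%) and 1963 lower (12.4%) under siTAZ. Larger changes were mostly rises: of 455 genes that changed at least 2-fold (2.88%), 335 were higher (2.12%) and 120 lower (0.761%). The 3 siTAZ libraries lay wholly on one side of the 3 controls for 6105 genes (38.7%). The main fit did not pair libraries by replicate number. With the replicate block, which does, 5606 genes (35.5%) were called, 2631 higher (16.7%) and 2975 lower (18.9%). The number of calls rested on single libraries: 1820 remained without siControl 1, 2453 without siControl 3 and 1715 without siTAZ 3, and leaving out all libraries numbered 3 left 144. A stricter set of 1445 genes (9.16%), 676 higher (4.29%) and 769 lower (4.87%), kept its call without any one siTAZ or siControl library, and the genes given below as called for siTAZ against siControl belong to it unless a library is named. Calls of siYAP against siControl were not sorted in this way. Without replicate 2 of all groups, which stood apart, 5267 genes were called. The median log2 change of all genes was 0.01.

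**Figure D1:**
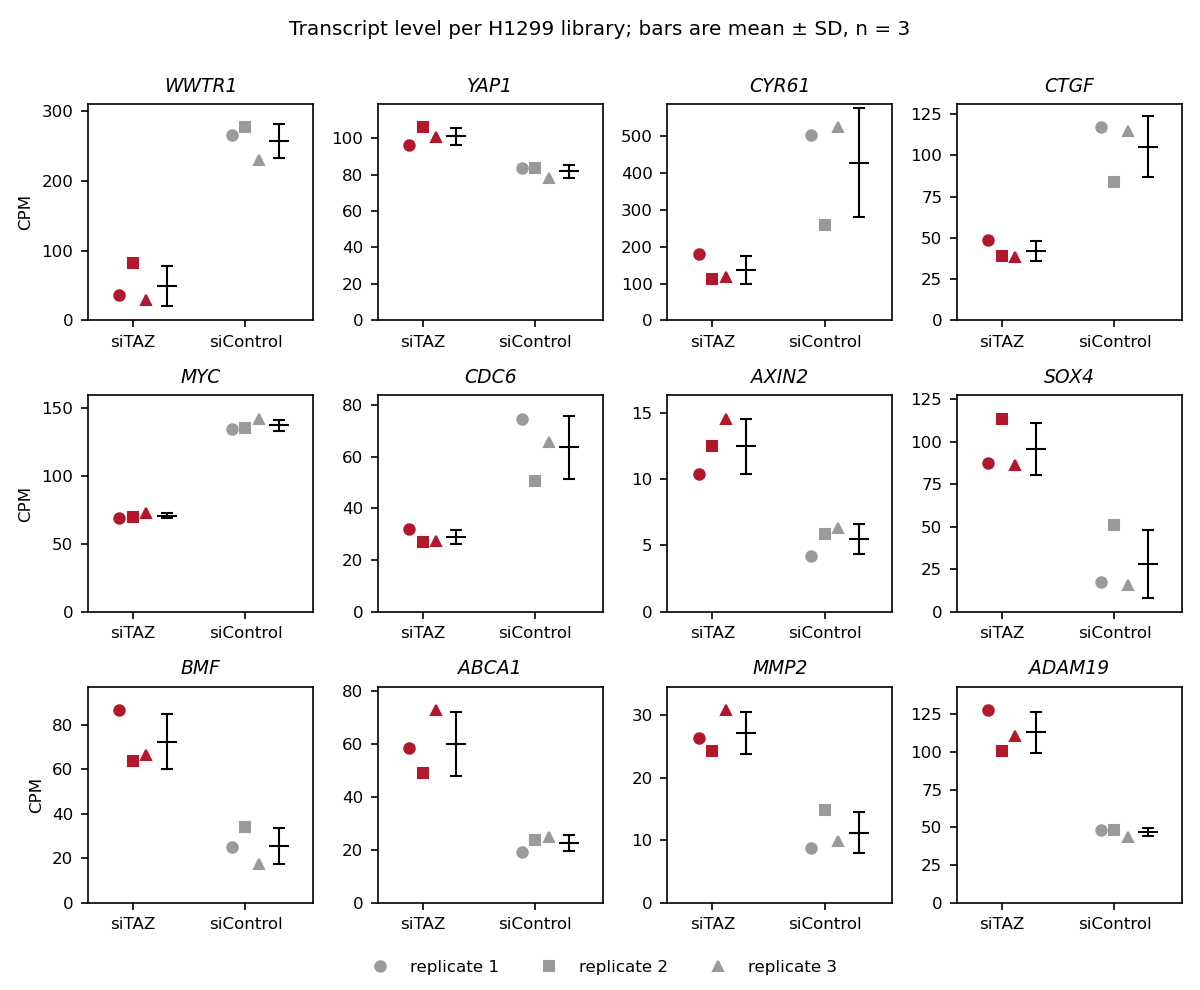
Transcript levels in CPM (vertical axes, starting at 0) of 12 genes in the siTAZ libraries (red) and the siControl libraries (grey), with a symbol per replicate and bars for mean ± SD (n = 3). WWTR1, CYR61, CTGF, MYC and CDC6 lie lower in all siTAZ libraries, YAP1 and the genes from AXIN2 to ADAM19 higher, and replicate 2 of siControl stands closest to siTAZ for CYR61 and SOX4.

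Among the classical targets, CYR61, a secreted matricellular protein, had 179.9, 112 and 118 CPM under siTAZ, against 503, 257 and 523 CPM under siControl (log2 change -1.65 ± 0.23, adjusted p = 0.000693). CTGF, a related matricellular protein, had 49, 38.8 and 38.2 CPM under siTAZ, against 117, 84.1 and 115 CPM under siControl (log2 change -1.33 ± 0.13, adjusted p = 0.000316). For both genes the highest siTAZ library lay below the lowest control, and siControl 2 was the lowest control. Of the 20 members of a published YAP/TAZ target signature that were tested, 6 fell and 2 rose, with a median of -0.19, against 12.4% and 10.9% of all genes. TGFB2, a TGF-beta ligand, fell to 14.8, 11.2 and 7.97 CPM under siTAZ, against 19.8, 22 and 17.5 CPM under siControl (-0.80 ± 0.23, adjusted p = 0.0216). AMOTL2, an angiomotin that holds YAP and TAZ in the cytoplasm (-0.44 ± 0.13), the Arf regulator ASAP1 (-0.31 ± 0.09) and the stress protein GADD45A (-0.34 ± 0.10) fell by less. Each of these 4 calls was lost without at least one library: TGFB2 without siControl 1, siControl 2 or siTAZ 3 (adjusted p of 0.0505 to 0.112), AMOTL2 without siControl 3, siTAZ 1 or siTAZ 2 (adjusted p of 0.058 to 0.1), ASAP1 without siControl 1, siControl 3, siTAZ 2 or siTAZ 3 (adjusted p of 0.0501 to 0.151) and GADD45A without siControl 2, siControl 3, siTAZ 1 or siTAZ 3 (adjusted p of 0.055 to 0.0851). The number of lower members was 3 without siControl 3 and 3 without siTAZ 3. In the other direction, CCDC80, a matrix protein, had 33.5, 31.7 and 34.6 CPM under siTAZ, against 16.8, 21.1 and 16.3 CPM under siControl (0.88 ± 0.11, adjusted p = 0.000417), and the RNA-binding protein RBMS3 rose (0.56 ± 0.14, adjusted p = 0.0123).

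Other members of the signature stayed short of the threshold. AXL, a receptor tyrosine kinase, had 801, 608 and 793 CPM under siTAZ, against 826, 659 and 1009 CPM under siControl (-0.18 ± 0.16, adjusted p = 0.432), and these ranges overlapped. MYOF (-0.19 ± 0.10, adjusted p = 0.166), LATS2 (0.04 ± 0.08, adjusted p = 0.762), F3 (0.09 ± 0.20, adjusted p = 0.782), FJX1 (0.05 ± 0.16, adjusted p = 0.846), DOCK5 (-0.05 ± 0.12, adjusted p = 0.778), ARHGEF17 (0.04 ± 0.11, adjusted p = 0.807) and NUAK2 (0.04 ± 0.20, adjusted p = 0.908) were likewise called neither without nor with the replicate block. CRIM1 (-0.36 ± 0.15), PTPN14 (-0.26 ± 0.11) and IGFBP3 (-0.48 ± 0.28) were lower and NT5E (0.22 ± 0.11) was higher with the block alone, with adjusted p of 0.00285, 0.0361, 0.0362 and 0.0408, against 0.106, 0.0955, 0.24 and 0.157 without it.

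Of 29 tested components of the Hippo pathway, 6 were lower, WWTR1 itself among them, and 3 higher (20.7% and 10.3%, against 12.4% and 10.9% of all genes), the higher count being 1 without siControl 1, 1 without siControl 3 and 1 without siTAZ 3. NF2, the upstream scaffold also called merlin, had 35.2, 34.8 and 28.9 CPM under siTAZ, against 84.8, 62.1 and 74.2 CPM under siControl (log2 change -1.16 ± 0.14, adjusted p = 0.000334). TEAD4 was the TEAD factor that fell, to 28.8, 30.8 and 25.8 CPM under siTAZ, against 41, 36.7 and 45.4 CPM under siControl (-0.53 ± 0.10, adjusted p = 0.00315). FRMD6, a FERM protein of the pathway, fell (-0.59 ± 0.12, adjusted p = 0.00466). VGLL4, which competes with YAP and TAZ for TEAD, had 51.2, 54.5 and 52.2 CPM under siTAZ, against 31.2, 40.5 and 25.5 CPM under siControl (0.70 ± 0.13, adjusted p = 0.00252). TEAD1 (-0.19 ± 0.12, adjusted p = 0.267) and the kinase LATS1 (0.12 ± 0.09, adjusted p = 0.35) did not pass the test. Under siYAP 9 of the 29 were lower and 0 higher, against 8.75% and 7.89% of all genes. Among those lower under siYAP were NF2 (-0.94 ± 0.14, adjusted p = 0.00133), TEAD4 (-0.40 ± 0.10, adjusted p = 0.0164) and FRMD6 (-0.50 ± 0.12, adjusted p = 0.0141), while VGLL4 was not called there. Another gene listed in the table overlaps WWTR1, AXL, CTGF, CRIM1, ARHGEF17, FRMD6, VGLL4 and LATS1, and since the counting's use of strand is not stated, reads of overlapping genes cannot be told apart.

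Protein-coding genes of at least 5 CPM were ranked if their groups did not overlap and their call did not rest on one library. Among these the largest fall after that of WWTR1 was in DKK1. DKK1, a secreted WNT antagonist, had 5.93, 3.01 and 4.92 CPM under siTAZ, against 23.3, 8.57 and 25.4 CPM under siControl (-2.05 ± 0.34, adjusted p = 0.00153), with siControl 2 far below the other 2 controls and yet above every siTAZ library. ADAMTS6, a secreted metalloproteinase, had 6.31, 6.17 and 5.94 CPM under siTAZ, against 22.7, 14.7 and 19.9 CPM under siControl (-1.64 ± 0.16, adjusted p = 0.00022). RFLNA, refilin A, a filamin-binding regulator of actin, had 14.4, 9.08 and 9.39 CPM under siTAZ, against 39.2, 24.9 and 32.7 CPM under siControl (-1.56 ± 0.19, adjusted p = 0.000388). The siTAZ values of ADAMTS6 lay within less than 1 CPM of each other, and siControl 2 was the lowest control for both genes. GSTCD (-1.26 ± 0.15, adjusted p = 0.000334), DDIAS, an apoptosis suppressor (-1.2 ± 0.21, adjusted p = 0.00177), and MGLL, monoacylglycerol lipase (-1.22 ± 0.27, adjusted p = 0.00651), also fell more than 2-fold. NEIL3, a DNA glycosylase for oxidized bases, had 6.74, 6.67 and 5.53 CPM under siTAZ, against 15.8, 12 and 16.8 CPM under siControl (-1.23 ± 0.17, adjusted p = 0.000685), and the kinetochore proteins SKA1 (-1.26 ± 0.21, adjusted p = 0.00158) and SKA3 (-1.23 ± 0.16, adjusted p = 0.000553) fell to a like extent. Under siYAP, DKK1, ADAMTS6, DDIAS, NEIL3, SKA1 and SKA3 were lower too, and RFLNA, GSTCD and MGLL were not called. Another listed gene overlaps RFLNA, GSTCD, DDIAS and MGLL.

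Under the same conditions, the largest rise was in ABCC3. ABCC3, an exporter of organic anions, had 29.3, 16.8 and 35.7 CPM under siTAZ, against 4.7, 8.69 and 5.44 CPM under siControl (2.12 ± 0.26, adjusted p = 0.000401), siTAZ 2 being the lowest of its group and siControl 2 the highest of the controls. SOX4, a transcription factor of progenitor and tumour cells, had 87.4, 113 and 86.5 CPM under siTAZ, against 17.5, 50.8 and 15.7 CPM under siControl (1.78 ± 0.36, adjusted p = 0.00407), and siControl 2 stood well above the other controls. SPOCD1 had 15.8, 8.42 and 16.2 CPM under siTAZ, against 5.27, 3.33 and 3.59 CPM under siControl (1.72 ± 0.28, adjusted p = 0.00135). SAMD11 (1.44 ± 0.24, adjusted p = 0.00162), TMEM229B (1.44 ± 0.18, adjusted p = 0.000417), KRCC1 (1.36 ± 0.16, adjusted p = 0.000334), the secreted OLFML2A (1.33 ± 0.15, adjusted p = 0.000325) and SRPX2 (1.36 ± 0.31, adjusted p = 0.00754) and the transporter SLC16A9 (1.37 ± 0.28, adjusted p = 0.00416) followed. Groups that did not overlap, as in 38.7% of all genes, were a condition of this choice. SERPINI1, neuroserpin, an inhibitor of tissue plasminogen activator, had 30.4, 38 and 28 CPM under siTAZ, against 7.79, 19.5 and 10.1 CPM under siControl (1.37 ± 0.24, adjusted p = 0.00218). ICAM1, an adhesion molecule for leukocytes, had 36.8, 17.1 and 20.3 CPM under siTAZ, against 11.7, 10.3 and 7.52 CPM under siControl (1.33 ± 0.26, adjusted p = 0.00361). MXRA8, a matrix remodelling protein, had 85.2, 78 and 109.9 CPM under siTAZ, against 32, 39.5 and 40.8 CPM under siControl (1.28 ± 0.13, adjusted p = 0.000272). Further rises of over 2-fold were in PRRT3 (1.31 ± 0.20), THSD7A (1.29 ± 0.22), PSAPL1 (1.28 ± 0.16), PLEKHB1 (1.23 ± 0.20) and the AMP deaminase AMPD3 (1.2 ± 0.19). Overlap with another listed gene applies to TMEM229B, SAMD11, SRPX2, ICAM1, PRRT3 and PSAPL1.

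**Figure D2:**
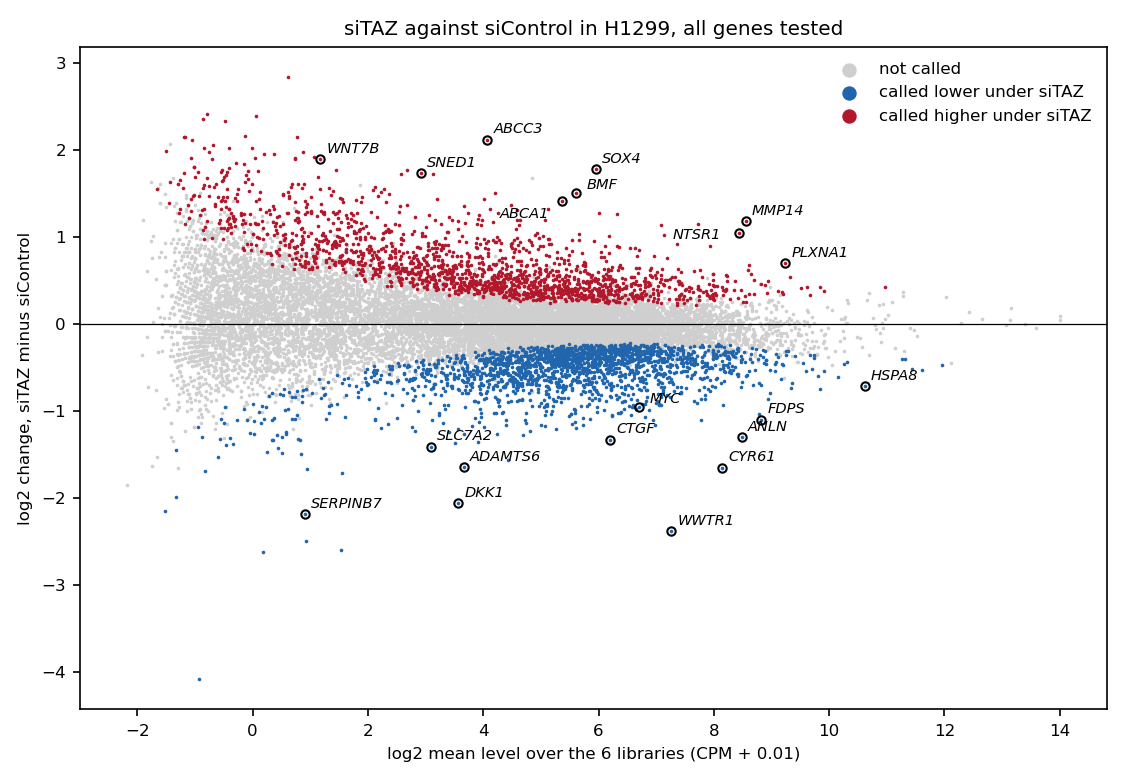
Log2 change of siTAZ minus siControl (vertical axis) against the log2 mean level over the 6 libraries (horizontal axis, CPM + 0.01) for 15775 genes, with the 1963 called lower in blue, the 1717 called higher in red and named genes circled. Calls reach smaller changes at higher levels, and of the called genes that changed at least 2-fold, 335 lie above 0 and 120 below.

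By difference in mean CPM, HSP90AA1 and HSPA8 were among the 10 called protein-coding genes with the largest falls. HSP90AA1, the inducible HSP90, had 2446, 2287 and 2099 CPM under siTAZ, against 3335, 3202 and 3251 CPM under siControl (-0.52 ± 0.11, adjusted p = 0.0047). HSPA8, the constitutive HSP70, had 1127, 1234 and 1214 CPM under siTAZ, against 1972, 1837 and 2045 CPM under siControl (-0.71 ± 0.11, adjusted p = 0.001003). TM4SF1, a tetraspanin-like surface protein, had 749, 606 and 698 CPM under siTAZ, against 1316, 882 and 1241 CPM under siControl (-0.74 ± 0.15, adjusted p = 0.00407). Genes were ranked by CPM under the same conditions, so groups that did not overlap were a condition here too. EMP1, an epithelial membrane protein, fell (-0.54 ± 0.11, adjusted p = 0.00472), as did the tubulins TUBB (-0.59 ± 0.11, adjusted p = 0.00311) and TUBB4B (-0.74 ± 0.12, adjusted p = 0.00146). MMP14 and PLXNA1 were among the 10 such genes with the largest rises in CPM. MMP14, a membrane-anchored metalloproteinase, had 518, 515 and 532 CPM under siTAZ, against 239, 257 and 191 CPM under siControl (1.19 ± 0.11, adjusted p = 0.00022). PLXNA1, a semaphorin receptor, had 793, 758 and 696 CPM under siTAZ, against 454, 542 and 383 CPM under siControl (0.71 ± 0.14, adjusted p = 0.00355). NTSR1, the neurotensin receptor, had 447, 403 and 550.2 CPM under siTAZ, against 207, 237 and 231 CPM under siControl (1.05 ± 0.15, adjusted p = 0.000763). SERPINE2, an extracellular inhibitor of serine proteases, had 342, 207 and 322 CPM under siTAZ, against 126, 139 and 127 CPM under siControl (1.15 ± 0.16, adjusted p = 0.000659), with siTAZ 2 the lowest of its group. The collagen receptor DDR1 (0.51 ± 0.11, adjusted p = 0.00493), the lysosomal exonuclease PLD3 (0.42 ± 0.09, adjusted p = 0.00714), the Golgi enzyme MGAT4B (0.49 ± 0.10, adjusted p = 0.00464) and the trophoblast glycoprotein TPBG (0.45 ± 0.10, adjusted p = 0.00614) rose by less. Under siYAP, MMP14 (0.88 ± 0.11, adjusted p = 0.000692), NTSR1 (1.10 ± 0.15, adjusted p = 0.000941), SERPINE2 (0.82 ± 0.16, adjusted p = 0.00426), PLD3 and MGAT4B were higher too. There PLXNA1, DDR1 and TPBG were not called. Of the falls, HSP90AA1, TUBB and TUBB4B were lower under siYAP, and HSPA8, TM4SF1 and EMP1 were not called. Another listed gene overlaps HSP90AA1, HSPA8, TM4SF1, TUBB4B, NTSR1, PLD3 and MGAT4B.

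To order the remaining genes, 49 lists of pathways, complexes and cell types were counted. Their members are described by the number called in each direction and the median log2 change, beside the shares over all genes tested of 12.4% lower and 10.9% higher, and no test was made of a list. Near these shares were, among others, the higher ones of Notch, hypoxia and collagen crosslinking genes and the lower one of endoplasmic reticulum chaperones. Both shares of the EGF receptor family list were near them too, and both of the epithelial junction list lay somewhat above. In those directions these lists do not stand out from all genes. Where a list shows 0 in a direction by edgeR, at most 2 members had an unadjusted p below 0.05 that way, at most 1 was called by DESeq2 and at most 3 by the replicate block. List counts of 2 or fewer took values of 0 to 3 without any one library and of 0 to 5 with the block. Counts given with the block are to be set beside its own shares over all genes, 18.9% lower and 16.7% higher. Without replicate 2 some counts grew by over 1.5 times, the higher ones to 22 for collagens and matrix glycoproteins, 16 for TGF-beta and BMP, 15 for FOXO and mTOR and 16 for interferon genes. Higher calls over all genes grew as well in that fit, from 1717 to 2533, so growth as such is not particular to these lists.

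**Figure D3:**
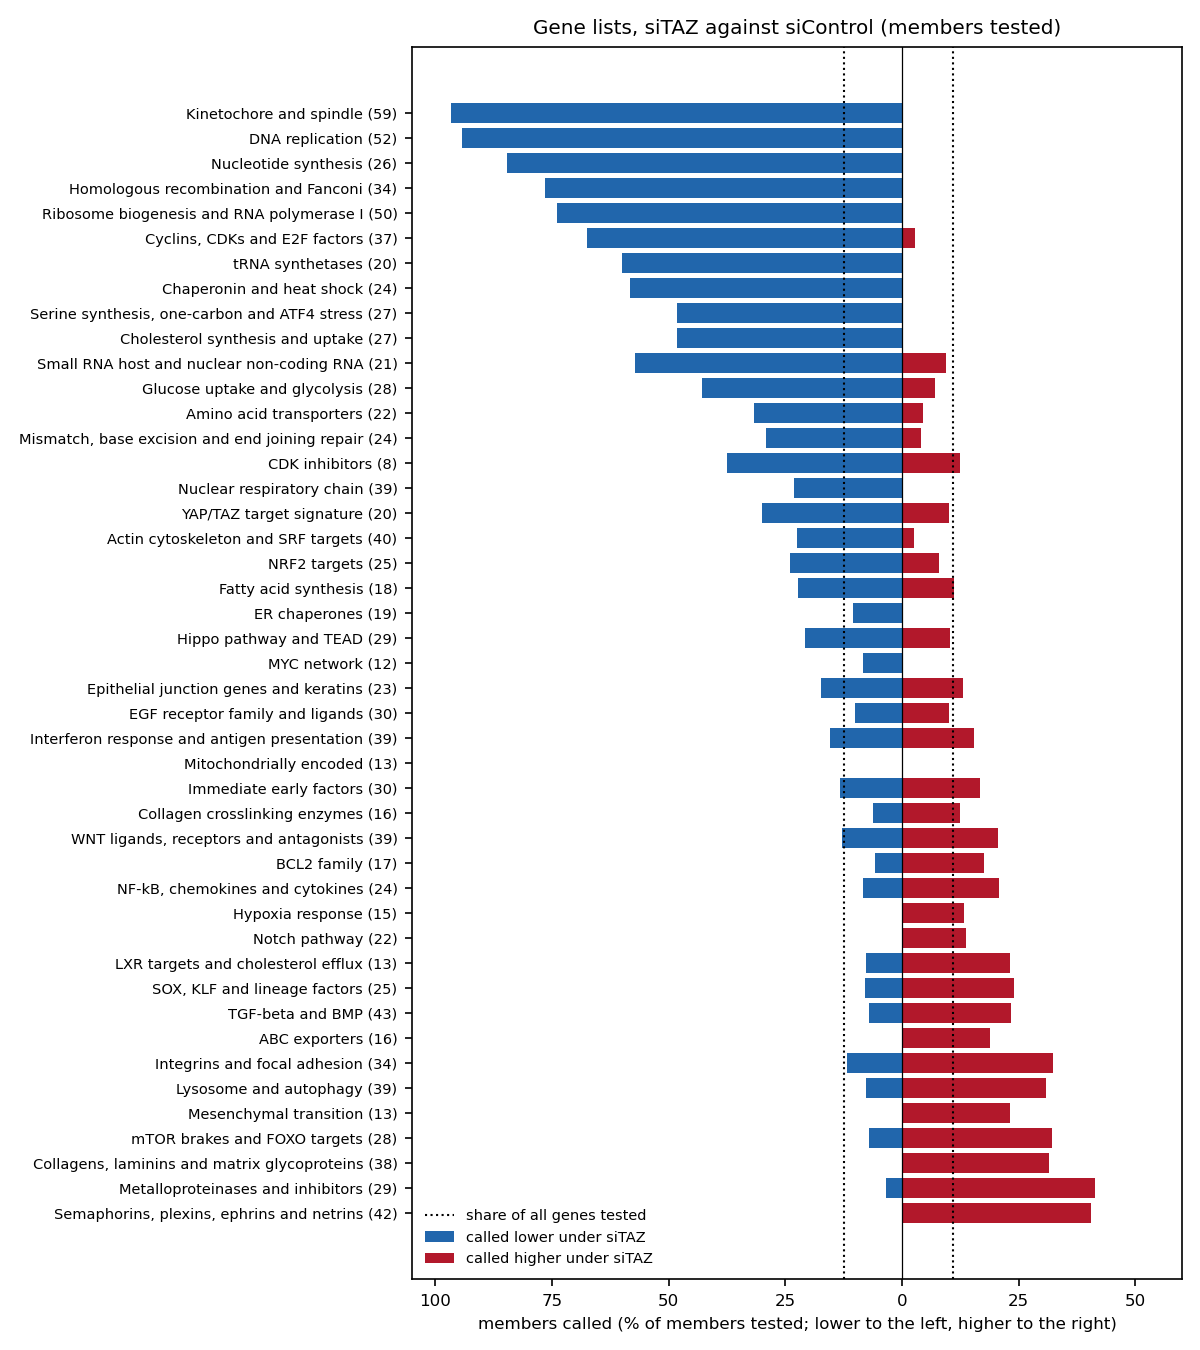
Share of the tested members of each gene list (number in brackets) that were called lower (blue, to the left) or higher (red, to the right) under siTAZ against siControl, for the reported lists with at least 8 tested members, with dotted lines at 12.4% and 10.9%, the shares over all genes tested. Kinetochore, replication and nucleotide synthesis genes reach the highest lower shares, and semaphorin and plexin genes and metalloproteinases the highest higher shares.

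DNA replication genes were lower under siTAZ almost without exception. In bulk RNA, fewer cells in the cycle and less of these transcripts per cell cannot be told apart. Of 52 tested, 49 fell and 0 rose, with a median log2 change of -0.71, and 41 of the calls held without any one siTAZ or siControl library. Replication starts when the origin recognition complex and CDC6 load the MCM helicase onto DNA. CDC6 had 32, 27.2 and 27.3 CPM under siTAZ, against 74.8, 50.7 and 65.8 CPM under siControl (-1.15 ± 0.13, adjusted p = 0.000325). ORC1, the largest subunit of the recognition complex, had 20.3, 20.2 and 18.8 CPM under siTAZ, against 50.6, 36.7 and 45.3 CPM under siControl (-1.16 ± 0.13, adjusted p = 0.000325). MCM6, a helicase subunit, had 106, 108 and 102 CPM under siTAZ, against 197, 165 and 196 CPM under siControl (-0.82 ± 0.09, adjusted p = 0.000325). MCM10, which helps activate the helicase, fell (-1.16 ± 0.19, adjusted p = 0.00137). All siTAZ libraries of these genes lay below all controls, and siControl 2 was the lowest control in each. GINS2, of the GINS complex that completes the helicase, had 21.7, 21.8 and 18.2 CPM under siTAZ, against 53.2, 36.1 and 49.99 CPM under siControl (-1.18 ± 0.14, adjusted p = 0.000415), and DTL, the substrate receptor of the ligase that destroys the licensing factor CDT1, 34.7, 29.8 and 32.2 CPM under siTAZ, against 66.5, 54.5 and 70.1 CPM under siControl (-0.98 ± 0.12, adjusted p = 0.000346). The sliding clamp PCNA fell (-0.82 ± 0.12, adjusted p = 0.000968).

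Promoters of replication and mitosis genes are shown because nearly all members of both lists fell and such promoters are known to carry cell cycle elements. E2F sites, read here as TTGGCGC, as the related form TTCCCGC or as the variant form TTGGCGG on either strand, were present in 32 of 45 replication genes with a RefSeq promoter (71.1%), against 12.3% of all 27305 promoters in the table and 19.4% of those of tested genes, each spanning 250 bases before to 50 after a gene's start. The cell cycle homology region, TTTGAA on either strand, was present in 33 of 48 kinetochore and spindle genes (68.8%), against 15.4% of all promoters and 9.4% of those of tested genes. The shares for tested genes rest on the 10536 of 15775 with an entry, as list shares rest on members with one, and genes without an entry may differ. The E2F forms were present in 21 of these 48 kinetochore and spindle promoters (43.8%). The first and last of these E2F forms differ in the final letter, the homology region reads TTCAAA on the opposite strand, and a match is a description of these windows. The sequences below run 5′ to 3′ along the gene's strand in GRCh38.p14, with matches of both motifs in capitals: CDC6 at chr17:40287629-40287928 on the plus strand, MCM6 at chr2:135876394-135876693 on the minus strand, ANLN at chr7:36389612-36389911 on the plus strand and MAD2L1 at chr4:120066799-120067098 on the minus strand. CDC6 and MCM6 hold E2F forms, ANLN holds the homology region, and MAD2L1 holds both.

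CDC6: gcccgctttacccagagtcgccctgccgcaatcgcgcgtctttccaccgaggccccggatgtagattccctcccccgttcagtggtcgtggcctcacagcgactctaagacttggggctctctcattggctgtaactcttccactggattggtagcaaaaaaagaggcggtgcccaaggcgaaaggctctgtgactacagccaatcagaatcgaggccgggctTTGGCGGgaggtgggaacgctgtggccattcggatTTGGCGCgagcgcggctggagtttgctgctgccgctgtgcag

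MCM6: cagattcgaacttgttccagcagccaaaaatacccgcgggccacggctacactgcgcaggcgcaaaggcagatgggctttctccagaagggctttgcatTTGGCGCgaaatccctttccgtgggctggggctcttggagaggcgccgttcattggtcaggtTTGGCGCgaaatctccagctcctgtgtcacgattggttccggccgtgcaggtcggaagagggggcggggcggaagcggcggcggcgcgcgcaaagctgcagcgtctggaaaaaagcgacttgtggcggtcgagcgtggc

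ANLN: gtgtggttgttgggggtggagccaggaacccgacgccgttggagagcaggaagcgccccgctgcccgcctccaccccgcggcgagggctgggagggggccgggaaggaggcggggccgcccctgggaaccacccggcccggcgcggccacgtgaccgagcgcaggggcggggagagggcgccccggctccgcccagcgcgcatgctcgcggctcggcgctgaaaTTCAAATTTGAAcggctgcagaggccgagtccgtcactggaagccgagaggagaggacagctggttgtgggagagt

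MAD2L1: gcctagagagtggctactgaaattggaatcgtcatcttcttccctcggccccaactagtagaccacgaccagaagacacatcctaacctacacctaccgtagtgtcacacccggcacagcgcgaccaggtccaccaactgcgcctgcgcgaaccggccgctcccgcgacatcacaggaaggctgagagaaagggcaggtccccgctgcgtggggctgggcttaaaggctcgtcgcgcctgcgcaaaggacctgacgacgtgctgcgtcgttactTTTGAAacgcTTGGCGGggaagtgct

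Counting the first transcribed base as 1, CDC6 has matches that begin at -27 and 9, MCM6 at -151 and -89, ANLN at -26 and -20 as adjoining copies on opposite strands, and MAD2L1 at 25 for the homology region and 35 for the E2F form. The TEAD element, GGAATG on either strand, stood in 11.6% of promoters of genes called lower and 10.5% of those called higher. Its share was 10.7% over tested genes and 14% over all promoters. It stood in 15.6% of replication, 12.5% of kinetochore and spindle and 30.8% (4 of 13) of YAP/TAZ signature promoters.

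Nucleotide synthesis followed replication, with 22 of 26 genes lower, 0 higher and a median of -0.50. TK1, thymidine kinase, had 38.4, 42.8 and 29.8 CPM under siTAZ, against 85.5, 67.5 and 82.4 CPM under siControl (-1.08 ± 0.15, adjusted p = 0.000693). TYMS, thymidylate synthase, had 48.4, 57.4 and 42 CPM under siTAZ, against 110.2, 86 and 109.9 CPM under siControl (-1.05 ± 0.15, adjusted p = 0.000699). The purine enzyme PAICS fell (-0.76 ± 0.12, adjusted p = 0.00113) and the CTP synthase CTPS1 (-0.69 ± 0.09, adjusted p = 0.000639). Thus enzymes of thymidylate, purine and pyrimidine synthesis were all among the called genes. Cyclins, CDKs and E2F factors had 25 of 37 lower and 1 higher (2 with the block), with a median of -0.60, the lower count being 13 without siTAZ 3. CDC25A, the phosphatase that activates CDK2, had 24.3, 20.4 and 21.6 CPM under siTAZ, against 51.2, 37.1 and 48.2 CPM under siControl (-1.04 ± 0.12, adjusted p = 0.000325). CDK2 itself fell (-0.67 ± 0.10, adjusted p = 0.00119) and CKS1B, a CDK subunit (-1.06 ± 0.16, adjusted p = 0.00106). TFDP1, the partner of E2F factors, fell (-0.70 ± 0.10, adjusted p = 0.000943), MYBL2 (-1.05 ± 0.19, adjusted p = 0.00216) and FOXM1, a regulator of mitotic genes (-0.75 ± 0.17, adjusted p = 0.00634). The G1 cyclin CCND1 (-0.23 ± 0.09, adjusted p = 0.0772) missed the threshold and passed it with the block (adjusted p = 0.0317).

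Kinetochore and spindle genes had the highest share lower of the lists with at least 8 tested members, 57 of 59 with a median of -0.75, the lower count being 35 without siTAZ 3. ANLN, anillin, the scaffold of the contractile ring, had 252, 196 and 173 CPM under siTAZ, against 559.7, 350.1 and 620.5 CPM under siControl (-1.30 ± 0.20, adjusted p = 0.00106). MAD2L1, the spindle checkpoint protein MAD2, had 16.8, 18.8 and 14.7 CPM under siTAZ, against 38.2, 31.4 and 37.9 CPM under siControl (-1.10 ± 0.17, adjusted p = 0.00106). OIP5, which helps load the centromeric histone, had 5.49, 9.03 and 4.62 CPM under siTAZ, against 16.5, 15.2 and 17.5 CPM under siControl (-1.36 ± 0.21, adjusted p = 0.00112). In OIP5, siTAZ 2 was nearer to the controls than siTAZ 1 and 3 were. CENPI (-1.27 ± 0.20, adjusted p = 0.00131), the condensin subunit NCAPH (-1.2 ± 0.20, adjusted p = 0.00161), the cytokinesis factors CEP55 (-1.16 ± 0.20, adjusted p = 0.00177) and ECT2 (-0.88 ± 0.14, adjusted p = 0.00125) and the kinase PKMYT1, which holds back CDK1 (-1.2 ± 0.18, adjusted p = 0.00114), fell as well. Homologous recombination and Fanconi genes had 26 of 34 lower and 0 higher, with a median of -0.61. XRCC2, of homologous recombination, had 9.19, 8.77 and 7.46 CPM under siTAZ, against 25.6, 16.6 and 22.7 CPM under siControl (-1.35 ± 0.18, adjusted p = 0.000639). The nuclease EXO1 (-0.90 ± 0.14, adjusted p = 0.00103), PSMC3IP (-1.0 ± 0.17, adjusted p = 0.00153), FANCD2 (-0.94 ± 0.17, adjusted p = 0.00235) and FANCB (-1.15 ± 0.21, adjusted p = 0.00258) fell too. Other repair genes were mixed, 7 of 24 lower and 1 higher, or 14 and 3 with the block. There UNG, which removes uracil from DNA, fell (-0.76 ± 0.10, adjusted p = 0.000623), XRCC5 (-0.45 ± 0.09, adjusted p = 0.00285) and PARP2 (-0.49 ± 0.10, adjusted p = 0.00369). XRCC1, a scaffold of single-strand break repair, rose (0.39 ± 0.07, adjusted p = 0.00283).

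Of 8 CDK inhibitors, 3 were lower and 1 higher, the lower count being 1 without siControl 3, 1 without siTAZ 1 and 1 without siTAZ 3. CDKN2B, p15, was higher at 74.9, 79.98 and 80.9 CPM under siTAZ, against 57, 67.2 and 48.2 CPM under siControl (0.45 ± 0.15, adjusted p = 0.0394), a call lost without siControl 1, siControl 3, siTAZ 1, siTAZ 2 or siTAZ 3 (adjusted p of 0.0568 to 0.147). CDKN2D, p19, fell (-0.69 ± 0.14, adjusted p = 0.00447), and CDKN3 (-0.70 ± 0.19) and CDKN2C, p18 (-0.41 ± 0.13), fell, the calls lost for CDKN3 without siControl 3, siTAZ 1 or siTAZ 3 (adjusted p of 0.0523 to 0.086) and for CDKN2C without siControl 1, siControl 3, siYAP 3, siTAZ 1 or siTAZ 3 (adjusted p of 0.0535 to 0.145). CDKN1A, p21, had 175, 185 and 154 CPM under siTAZ, against 243, 198 and 169 CPM under siControl (-0.25 ± 0.13, adjusted p = 0.18), and passed with the block (adjusted p = 0.045). CDKN1B, p27, missed the threshold at 0.18 ± 0.08, adjusted p = 0.127. Overlap with another listed gene applies to CDKN2B, GINS2, DTL, TYMS, CDK2, CKS1B, FOXM1, ANLN, MAD2L1, OIP5, PKMYT1, PSMC3IP, XRCC1 and CDKN1B.

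MYC, the transcription factor of growth and biosynthesis (chromosome 8, 127735434 to 127741434), was lowered to 69.1, 69.9 and 72.9 CPM under siTAZ, against 135, 135 and 142 CPM under siControl (-0.96 ± 0.11, adjusted p = 0.000334). Values within each group were close together, and the groups were far apart. Among 12 MYC network genes edgeR called MYC alone, the partner and antagonist genes MAX (-0.12 ± 0.08, adjusted p = 0.339), MXD4 (0.36 ± 0.14, adjusted p = 0.0772) and MNT (0.20 ± 0.08, adjusted p = 0.0876) among those that were not, although MXD4 and MNT passed with the block (adjusted p = 0.00921 and 0.0318). Ribosome biogenesis genes, which process ribosomal RNA or serve RNA polymerase I and include many known MYC targets, had 37 of 50 lower and 0 higher, with a median of -0.47. NIP7, a factor of the large subunit, had 22.4, 28.6 and 20.04 CPM under siTAZ, against 43.7, 44.9 and 45.9 CPM under siControl (-0.92 ± 0.11, adjusted p = 0.000417). NOLC1, which acts in the nucleolus, had 126, 115 and 107 CPM under siTAZ, against 202, 161 and 186 CPM under siControl (-0.66 ± 0.09, adjusted p = 0.00087). LYAR (-0.84 ± 0.11, adjusted p = 0.000638), the pseudouridine synthase DKC1 (-0.56 ± 0.08, adjusted p = 0.000791), EBNA1BP2 (-0.73 ± 0.11, adjusted p = 0.0011), NOP56 of the box C/D particles (-0.57 ± 0.09, adjusted p = 0.00148), the methyltransferase FBL (-0.56 ± 0.11, adjusted p = 0.00451) and the polymerase subunit POLR1B (-0.50 ± 0.08, adjusted p = 0.00174) fell also. The E-box CACGTG, the element bound by MYC, stood in the promoters of 13 of 43 of these genes (30.2%), against 7.43% of all promoters and 10.1% of those of tested genes. Its share was 11.3% for all genes called lower and 9.89% for all genes called higher. A part of MYC in these falls was not tested. The E-box was also counted in other lists. It stood in 5 of 22 promoters of the FOXO and mTOR list and 3 of 13 of the YAP/TAZ signature. The FOXO element TGTTTAC stood in 1 of those 22 promoters (4.55%), against 3.41% of all promoters and 2.15% of those of tested genes. Under siYAP, 5 of the 50 were lower and 0 higher, against 8.75% and 7.89% of all genes. In the direct test 24 were lower under siTAZ than under siYAP, against 5.6% of all genes.

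Host genes of small nucleolar RNAs moved with the ribosome genes, 12 of 21 small RNA hosts and nuclear non-coding RNAs being lower and 2 higher (4 with the block). SNHG3 had 91, 98.9 and 96.4 CPM under siTAZ, against 156, 148 and 194 CPM under siControl (-0.80 ± 0.11, adjusted p = 0.000587). SNHG8 had 24.4, 34.4 and 28.3 CPM under siTAZ, against 50.5, 51.9 and 54.7 CPM under siControl (-0.85 ± 0.13, adjusted p = 0.001003). GAS5 (-0.53 ± 0.09, adjusted p = 0.0016), SNHG1 (-0.69 ± 0.11, adjusted p = 0.00132) and SNHG15 (-0.69 ± 0.11, adjusted p = 0.00114) fell as well, whereas NEAT1, the scaffold of paraspeckles, rose to 488, 419.7 and 536 CPM under siTAZ, against 264, 311 and 329 CPM under siControl (0.67 ± 0.14, adjusted p = 0.00567). Under siYAP 1 of the list was lower and 2 higher, against 8.75% and 7.89% of all genes. The direct test put siTAZ below siYAP for 8 and above it for 2, against 5.6% and 6.1% of all genes. Among the 8 were SNHG3 (difference -1.09 ± 0.11, adjusted p = 0.000108) and SNHG8 (-1.02 ± 0.13, adjusted p = 0.000348). Aminoacyl-tRNA synthetases had 12 of 20 lower, 0 higher and a median of -0.35, the lower count being 7 without siControl 1 and 6 without siTAZ 3. FARSA (-0.57 ± 0.09, adjusted p = 0.00132), IARS (-0.47 ± 0.09, adjusted p = 0.00297), KARS (-0.46 ± 0.09, adjusted p = 0.00297), LARS (-0.46 ± 0.09, adjusted p = 0.00322) and YARS (-0.53 ± 0.10, adjusted p = 0.00355) led by p-value. Under siYAP 1 of the synthetases was lower and 1 higher, against 8.75% and 7.89% of all genes. Cytosolic and mitochondrial chaperones had 14 of 24 lower and 0 higher, the lower count being 9 without siControl 1 and 9 without siTAZ 3. HSPD1, mitochondrial HSP60, had 219.7, 241 and 211 CPM under siTAZ, against 374, 322 and 361 CPM under siControl (-0.65 ± 0.09, adjusted p = 0.000623). Its partner HSPE1 fell (-0.60 ± 0.11, adjusted p = 0.00202), HSPH1 (-0.55 ± 0.10, adjusted p = 0.00233) and TCP1, of the cytosolic chaperonin ring (-0.54 ± 0.10, adjusted p = 0.00265). HSPD1, HSPE1, PGAM1, CYCS and TUBB have many processed pseudogenes, so their counts are less certain. Another listed gene overlaps MAX, NIP7, EBNA1BP2, SNHG3, GAS5, SNHG1, KARS, YARS, HSPD1, HSPE1 and TCP1.

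Genes of serine and one-carbon metabolism and of the ATF4 amino acid response had 13 of 27 lower and 0 higher (1 with the block), with a median of -0.47, the lower count being 8 without siTAZ 3. PSAT1, an aminotransferase of serine synthesis, had 72.3, 83.6 and 68.5 CPM under siTAZ, against 137, 183 and 106 CPM under siControl (-0.92 ± 0.15, adjusted p = 0.00147). PHGDH, the first enzyme of that route, had 13.4, 14 and 12.8 CPM under siTAZ, against 20.9, 26.3 and 20.1 CPM under siControl (-0.74 ± 0.12, adjusted p = 0.00131). PYCR1, which makes proline, had 21.6, 26.6 and 19.7 CPM under siTAZ, against 48.1, 44.5 and 43 CPM under siControl (-1.0 ± 0.11, adjusted p = 0.000325). In each the groups did not overlap. The folate enzymes MTHFD1 (-0.57 ± 0.09, adjusted p = 0.0011), MTHFD2 (-0.80 ± 0.13, adjusted p = 0.00165) and SHMT2 (-0.47 ± 0.10, adjusted p = 0.00561) fell, and ATF4 itself missed the threshold (-0.20 ± 0.12, adjusted p = 0.239, with the block 0.0392). Amino acid transporters had 7 of 22 lower and 1 higher (4 with the block). SLC7A2, a cationic amino acid carrier, had 4.35, 4.66 and 4.97 CPM under siTAZ, against 15.9, 9.17 and 12 CPM under siControl (-1.41 ± 0.19, adjusted p = 0.000649). SLC7A11, the cystine carrier, had 6.36, 6.12 and 6.04 CPM under siTAZ, against 16.7, 14.2 and 9.87 CPM under siControl (-1.14 ± 0.20, adjusted p = 0.00202). The glutamine carrier SLC1A5 fell (-0.78 ± 0.11, adjusted p = 0.000869), SLC7A5, a carrier of large neutral amino acids (-0.77 ± 0.17, adjusted p = 0.00621) and SLC36A4 (-0.76 ± 0.14, adjusted p = 0.00276). Of 19 chaperones of the endoplasmic reticulum 2 fell: HYOU1 had 106, 116 and 104 CPM under siTAZ, against 207, 162 and 212 CPM under siControl (-0.84 ± 0.11, adjusted p = 0.000452). SDF2L1 fell (-0.45 ± 0.11) with a call lost without siControl 1 or siTAZ 3 (adjusted p of 0.0509 to 0.0624). Overlap with another listed gene applies to PYCR1, MTHFD1, SHMT2, SLC1A5 and SLC36A4.

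Cholesterol genes were lower under siTAZ, with 13 of 27 called, 21 with the block, and 0 higher, or 1 with the block. Their median was -0.43, the lower count being 7 without siControl 1 and 6 without siTAZ 3. FDPS, farnesyl diphosphate synthase, had 307, 328 and 230.5 CPM under siTAZ, against 658, 653 and 542 CPM under siControl (-1.10 ± 0.19, adjusted p = 0.00179). MVD, which decarboxylates mevalonate diphosphate, had 346, 285 and 234 CPM under siTAZ, against 721, 503 and 543 CPM under siControl (-1.03 ± 0.17, adjusted p = 0.00145). IDI1, the next enzyme, had 220.1, 201 and 168 CPM under siTAZ, against 446, 338 and 335 CPM under siControl (-0.92 ± 0.16, adjusted p = 0.00191). All siTAZ libraries of these 3 enzymes lay below all controls. HSD17B7, of sterol synthesis, fell (-0.65 ± 0.10, adjusted p = 0.00138). Under siYAP 17 of the 27 were lower (median -0.48) and 1 higher, against 8.75% and 7.89% of all genes. SREBF2, the factor that drives these genes, had 552, 489 and 492 CPM under siTAZ, against 627, 552 and 566 CPM under siControl and was not called (-0.19 ± 0.13, adjusted p = 0.322), whereas siYAP lowered it (-1.21 ± 0.13, adjusted p = 0.000297), and the siTAZ minus siYAP difference was 1.02 ± 0.13, adjusted p = 0.000486.

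On the export side, ABCA1, which moves cholesterol out of cells, had 58.7, 48.9 and 72.9 CPM under siTAZ, against 19.1, 23.6 and 25 CPM under siControl (1.41 ± 0.15, adjusted p = 0.000325). NR1H3, the sterol receptor LXR alpha, rose (0.62 ± 0.15, adjusted p = 0.00899) and its target SMPDL3A (0.33 ± 0.09), that call lost without siControl 3, siTAZ 1 or siTAZ 3 (adjusted p of 0.0704 to 0.0975). NPC1, which releases cholesterol from lysosomes, fell (-0.44 ± 0.15), a call lost without siControl 1, siControl 3, siYAP 2, siYAP 3, siTAZ 2 or siTAZ 3 (adjusted p of 0.0532 to 0.213). The 13 LXR and efflux genes had 3 higher (6 with the block) and 1 lower. Fatty acid synthesis had 4 of 18 lower (9 with the block) and 2 higher. ACLY, ATP citrate lyase, had 586, 490.1 and 436 CPM under siTAZ, against 945, 747 and 716 CPM under siControl (-0.67 ± 0.13, adjusted p = 0.00325). FADS1, a desaturase, fell (-0.70 ± 0.13, adjusted p = 0.00235) and the elongase ELOVL5 (-0.63 ± 0.12, adjusted p = 0.00331). ACACB, an acetyl-CoA carboxylase tied to the control of fat oxidation, rose (0.53 ± 0.13), a call lost without siControl 1 (adjusted p = 0.0523), and ACSL1 (0.28 ± 0.08), lost without siControl 1, siControl 3, siTAZ 1 or siTAZ 3 (adjusted p of 0.0676 to 0.117). Glycolysis genes had 12 of 28 lower and 2 higher, the lower count being 4 without siControl 1, 7 without siTAZ 1 and 3 without siTAZ 3. HK2, a hexokinase, had 25.4, 22.8 and 22.7 CPM under siTAZ, against 51, 38.1 and 40.2 CPM under siControl (-0.87 ± 0.11, adjusted p = 0.000483). PGAM1, phosphoglycerate mutase, had 21, 28.1 and 20.9 CPM under siTAZ, against 46.8, 43.2 and 43.7 CPM under siControl (-0.93 ± 0.12, adjusted p = 0.00043). PFKP fell (-0.44 ± 0.08, adjusted p = 0.00319). LDHA, lactate dehydrogenase, fell (-0.70 ± 0.16), a call lost without siTAZ 3 (adjusted p = 0.0543), and ALDOA (-0.46 ± 0.12), lost without siControl 1 or siTAZ 3 (adjusted p of 0.0746 to 0.09). Both HK2 (difference -1.01 ± 0.11, adjusted p = 0.000197) and PGAM1 (-0.83 ± 0.12, adjusted p = 0.000761) were lower under siTAZ than under siYAP. Of 15 hypoxia genes, 0 were lower (2 with the block) and 2 higher, ADM, adrenomedullin, at 14.9, 16.2 and 17.2 CPM under siTAZ, against 7.73, 8.75 and 6.23 CPM under siControl (1.09 ± 0.16, adjusted p = 0.000869) and KDM3A (0.27 ± 0.08), a call lost without siControl 1, siControl 2, siControl 3, siTAZ 1 or siTAZ 3 (adjusted p of 0.0623 to 0.107). Another listed gene overlaps FDPS, ABCA1, NR1H3, FADS1, ACACB and HK2.

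FOXO factors, which AKT keeps out of the nucleus, and inhibitors of PI3K and mTOR signalling were counted as 1 list, with 9 of 28 higher (15 with the block), 2 lower (5 with the block) and a median of 0.24. DEPTOR, which binds and inhibits mTOR, had 6.09, 10.03 and 6.7 CPM under siTAZ, against 2.52, 3.75 and 1.85 CPM under siControl (1.5 ± 0.28, adjusted p = 0.00265). PIK3IP1, an inhibitor of PI3K, had 28.4, 29.5 and 29.4 CPM under siTAZ, against 11.9, 19.1 and 15.1 CPM under siControl (0.92 ± 0.15, adjusted p = 0.00132), and FBXO32, atrogin-1, a muscle atrophy ligase controlled by FOXO factors, 27.6, 33.3 and 31.3 CPM under siTAZ, against 13.5, 20.5 and 13.1 CPM under siControl (0.97 ± 0.15, adjusted p = 0.00114). The siTAZ values of each lay above all controls, of which siControl 2 was the highest. KLHL24 (0.74 ± 0.13, adjusted p = 0.00191) and BCL6 (0.81 ± 0.17, adjusted p = 0.00438) rose as well. FOXO1 (0.93 ± 0.22, adjusted p = 0.00965) and FOXO3 (0.37 ± 0.10, adjusted p = 0.0151) were higher, the calls lost for FOXO1 without siControl 1 (adjusted p = 0.0527) and for FOXO3 without siControl 3 or siTAZ 1 (adjusted p of 0.0519 to 0.0712). Under siYAP 1 of the list was higher and 3 lower, against 7.89% and 8.75% of all genes. In the direct test siTAZ lay above siYAP for 10, against 6.1% of all genes, with FBXO32 at 0.97 ± 0.15, adjusted p = 0.0013 and KLHL24 at 0.79 ± 0.13, adjusted p = 0.00181.

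In the BCL2 family, 3 of 17 genes rose and 1 fell (2 with the block). BMF, a BH3-only protein that promotes apoptosis, had 86.6, 63.8 and 66.5 CPM under siTAZ, against 25.1, 33.9 and 17.5 CPM under siControl (1.5 ± 0.23, adjusted p = 0.001003). BIK, another, had 2.45, 2.06 and 2.28 CPM under siTAZ, against 0.917, 1.07 and 0.449 CPM under siControl (1.48 ± 0.29, adjusted p = 0.00355). BBC3, PUMA, rose (0.55 ± 0.17) with a call lost without siControl 1, siControl 3, siTAZ 2 or siTAZ 3 (adjusted p of 0.0624 to 0.115). BAX, an effector of apoptosis, fell (-0.35 ± 0.09) with a call lost without siControl 1 (adjusted p = 0.0581). All 3 genes that rose are BH3-only members. Lysosome and autophagy genes had 12 of 39 higher (19 with the block) and 3 lower, the higher count being 7 without siTAZ 1 and the lower count being 1 without siControl 1 and 1 without siTAZ 3. ARSA, arylsulfatase A, had 30.6, 24.4 and 34.3 CPM under siTAZ, against 16, 16.6 and 17.7 CPM under siControl (0.83 ± 0.12, adjusted p = 0.001003). TFEB, the factor that drives lysosomal genes, had 5.93, 7.62 and 6.34 CPM under siTAZ, against 3.95, 4.88 and 2.97 CPM under siControl (0.76 ± 0.18, adjusted p = 0.0104). The glucosidase GAA rose (0.49 ± 0.10, adjusted p = 0.00496), progranulin (GRN) (0.40 ± 0.09, adjusted p = 0.00611) and ULK1, the kinase that starts autophagy (0.39 ± 0.08, adjusted p = 0.00407). Of 16 ABC exporters 3 rose (5 with the block) and 0 fell (3 with the block). Those that rose were ABCC3 and ABCA1 as above and ABCA5 (0.73 ± 0.24), a call lost without siControl 1, siControl 2, siYAP 1, siYAP 3, siTAZ 1 or siTAZ 3 (adjusted p of 0.0521 to 0.178). Overlap with another listed gene applies to PIK3IP1, BCL6 and ABCA5.

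Metalloproteinases and their inhibitors were among the lists with most rises, 12 of 29 higher and 1 lower (2 with the block), with a median of 0.38. These enzymes cut collagens and other matrix or surface proteins. MMP2, a gelatinase, had 26.4, 24.2 and 30.8 CPM under siTAZ, against 8.82, 14.9 and 9.82 CPM under siControl (1.28 ± 0.17, adjusted p = 0.000565), MMP11, stromelysin 3, 27.3, 22.6 and 31.9 CPM under siTAZ, against 7.51, 12.1 and 9.2 CPM under siControl (1.5 ± 0.17, adjusted p = 0.000325), and MMP10, stromelysin 2, 21.6, 18 and 24.3 CPM under siTAZ, against 6.88, 12 and 8.02 CPM under siControl (1.25 ± 0.21, adjusted p = 0.00172). ADAM19, a membrane protease that sheds growth factors, had 128, 101 and 110.2 CPM under siTAZ, against 48.5, 48.2 and 43.9 CPM under siControl (1.27 ± 0.11, adjusted p = 0.00022). MMP14 rose as given above, whereas ADAMTS6 was the member that fell. Collagens, laminins and matrix glycoproteins had 12 of 38 higher (21 with the block), 0 lower (2 with the block) and a median of 0.42, the higher count being 7 without siControl 1, 5 without siTAZ 1 and 6 without siTAZ 3. SNED1, a matrix glycoprotein, had 10.7, 12.1 and 12 CPM under siTAZ, against 3.55, 4.64 and 2.3 CPM under siControl (1.73 ± 0.20, adjusted p = 0.000325). FN1, fibronectin, had 127, 141 and 97.2 CPM under siTAZ, against 59.5, 84.8 and 54.5 CPM under siControl (0.88 ± 0.19, adjusted p = 0.00634). LAMB2, a laminin chain, rose (0.44 ± 0.10, adjusted p = 0.00803), COL1A1 (0.83 ± 0.18, adjusted p = 0.00603) at a low level of 5.16 ± 0.967 CPM under siTAZ and 2.9 ± 0.0358 CPM under siControl (SD, n = 3), and COL18A1 (0.42 ± 0.11), a call lost without siControl 3 (adjusted p = 0.058). Enzymes that crosslink or fold collagen had 2 higher and 1 lower (2 with the block) of 16: LOXL1 had 75.5, 82 and 96.5 CPM under siTAZ, against 39, 53.7 and 50.1 CPM under siControl (0.83 ± 0.15, adjusted p = 0.00238). The collagen chaperone SERPINH1 rose (0.76 ± 0.15, adjusted p = 0.00371). LOXL2 fell (-0.45 ± 0.14), a call lost without siControl 1, siControl 3, siTAZ 2 or siTAZ 3 (adjusted p of 0.0698 to 0.18). Endothelial and fibroblast markers moved beside them: of 5 tested of 11, 3 were higher, COL1A1, VWF (1.81 ± 0.49) and PDGFRB (0.80 ± 0.25), the count being 1 without siControl 1 and 1 without siTAZ 3 and the calls lost for VWF without siControl 1, siControl 3 or siTAZ 3 (adjusted p of 0.0599 to 0.0978) and for PDGFRB without siControl 1, siControl 2, siTAZ 1 or siTAZ 3 (adjusted p of 0.0661 to 0.14). The sum of that list was 10.2 to 12.9 CPM under siTAZ and 5.83 to 7.13 CPM under siControl, and its part in the matrix result was not tested.

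Integrins and focal adhesion genes went both ways, 11 of 34 higher and 4 lower, the higher count being 6 without siControl 1 and 7 without siTAZ 3. CAV1, caveolin 1, the coat protein of caveolae, had 168, 175 and 170.3 CPM under siTAZ, against 294, 235 and 316 CPM under siControl (-0.72 ± 0.10, adjusted p = 0.000757). Its partner CAV2 had 62.7, 69.5 and 67 CPM under siTAZ, against 122, 102 and 127 CPM under siControl (-0.82 ± 0.10, adjusted p = 0.000467). FERMT2, kindlin 2, fell to 26.4, 34.4 and 29.4 CPM under siTAZ, against 49.4, 48 and 48.5 CPM under siControl (-0.69 ± 0.10, adjusted p = 0.000773), while its paralog FERMT1, kindlin 1, had 62.5, 75.2 and 63 CPM under siTAZ, against 36.8, 50.5 and 35.5 CPM under siControl (0.71 ± 0.13, adjusted p = 0.00239). Both kindlins, which activate integrins, were thus called in opposite directions. ITGB8, an integrin chain that activates latent TGF-beta, had 19.6, 14.5 and 18.9 CPM under siTAZ, against 7.96, 7.38 and 8.3 CPM under siControl (1.16 ± 0.23, adjusted p = 0.00383). Actin cytoskeleton genes and SRF targets had 9 of 40 lower (15 with the block) and 1 higher (3 with the block), the lower count being 4 without siControl 1 and 4 without siTAZ 3. FLNC, filamin C, had 360.3, 320.0 and 357 CPM under siTAZ, against 504, 448 and 537 CPM under siControl (-0.52 ± 0.10, adjusted p = 0.00294). DIAPH3, a formin, fell (-0.75 ± 0.14, adjusted p = 0.00263) and ARHGAP29, a GTPase-activating protein (-0.82 ± 0.18, adjusted p = 0.00738). ACTA2, smooth muscle actin, rose (1.05 ± 0.22, adjusted p = 0.00494) at 3.14 ± 0.669 CPM under siTAZ and 1.52 ± 0.0877 CPM under siControl (SD, n = 3).

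Semaphorins, plexins, ephrins and netrins, ligands and receptors of axon guidance that also steer tumour cells and vessels, had 17 of 42 higher and 0 lower (1 with the block), with a median of 0.30, the higher count being 11 without siControl 1, 10 without siTAZ 1 and 11 without siTAZ 3. PLXNB1, a plexin, had 34.1, 29.7 and 32.4 CPM under siTAZ, against 16.2, 16.6 and 15.6 CPM under siControl (0.99 ± 0.11, adjusted p = 0.000325). SLIT3, a secreted guidance ligand, had 38.6, 38.6 and 34.9 CPM under siTAZ, against 18.9, 22.9 and 18 CPM under siControl (0.91 ± 0.12, adjusted p = 0.000625). NRP1, a co-receptor of semaphorins and VEGF, had 114, 61.7 and 116 CPM under siTAZ, against 53.7, 41.9 and 48.5 CPM under siControl (1.02 ± 0.18, adjusted p = 0.00233), siTAZ 2 being the lowest of its group. SEMA6B (0.62 ± 0.11, adjusted p = 0.00262) and the ephrin EFNA1 (0.93 ± 0.16, adjusted p = 0.00201) rose beside PLXNA1. TGF-beta and BMP genes had 10 of 43 higher (16 with the block) and 3 lower (7 with the block), the higher count being 6 without siControl 1 and 5 without siControl 3 and the lower count being 1 without siControl 1 and 0 without siTAZ 3. LTBP3, a latent TGF-beta binding protein, had 324, 292 and 343 CPM under siTAZ, against 167, 187 and 162 CPM under siControl (0.89 ± 0.10, adjusted p = 0.000325). Its relative LTBP1 had 102, 89 and 86.7 CPM under siTAZ, against 53.7, 59.3 and 45.1 CPM under siControl (0.81 ± 0.12, adjusted p = 0.000968). LTBP2 rose too (0.44 ± 0.10, adjusted p = 0.0076), so that 3 binding proteins of the family were higher. The receptor BMPR2 rose (0.57 ± 0.10, adjusted p = 0.00174) and PMEPA1, a feedback inhibitor of the pathway (0.97 ± 0.23, adjusted p = 0.00919). The ligand TGFB2 fell as given above. Another listed gene overlaps MMP11, ADAM19, SNED1, LOXL1, LOXL2, COL18A1, CAV2, ITGB8, FLNC, ACTA2 and PMEPA1.

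WNT pathway genes were mixed, 8 of 39 higher and 5 lower, the higher count being 5 without siControl 1, 4 without siControl 3, 5 without siTAZ 1 and 5 without siTAZ 3 and the lower count being 2 without siControl 1, 2 without siControl 3, 3 without siYAP 3, 3 without siTAZ 2 and 2 without siTAZ 3. AXIN2, a feedback inhibitor that WNT signalling itself induces, had 10.4, 12.5 and 14.6 CPM under siTAZ, against 4.18, 5.83 and 6.34 CPM under siControl (1.19 ± 0.17, adjusted p = 0.000922). TCF7, a nuclear partner of beta-catenin, had 68.9, 69 and 66.3 CPM under siTAZ, against 29.3, 45 and 25.3 CPM under siControl (1.04 ± 0.16, adjusted p = 0.00114). The ligand WNT7B had 3.53, 4.06 and 2.99 CPM under siTAZ, against 0.573, 1.25 and 1.01 CPM under siControl (1.90 ± 0.27, adjusted p = 0.000744). These genes rose while the antagonist DKK1 fell, and the receptor RYK fell (-0.41 ± 0.08, adjusted p = 0.00443). In the Notch pathway 3 of 22 rose (7 with the block) and 0 fell (1 with the block): the ligand DLL1 had 19.4, 14.4 and 15.2 CPM under siTAZ, against 6.88, 7.98 and 6.62 CPM under siControl (1.19 ± 0.17, adjusted p = 0.000791), the DNA-binding RBPJ rose (0.47 ± 0.10, adjusted p = 0.00486), and LFNG, which modifies Notch (0.86 ± 0.26), a call lost without siControl 1, siControl 3 or siTAZ 2 (adjusted p of 0.0899 to 0.127). SOX, KLF and lineage factors had 6 of 25 higher and 2 lower (5 with the block). Beside SOX4, the stem cell factor SOX2 had 38.9, 60.02 and 40.7 CPM under siTAZ, against 12.8, 30.4 and 17.8 CPM under siControl (1.2 ± 0.28, adjusted p = 0.0093). SOX13 rose (0.41 ± 0.09, adjusted p = 0.00623) and SOX5 (1.19 ± 0.27, adjusted p = 0.00776). HES6 fell (-1.10 ± 0.22, adjusted p = 0.00407). For both SOX2 and SOX4 replicate 2 was the highest library of each group. EGF receptor family, FGF and related genes had 3 lower (6 with the block) and 3 higher (7 with the block) of 30, the lower count being 1 without siControl 1 and 1 without siTAZ 3 and the higher count being 5 without siTAZ 2. There FGF2 fell (-0.89 ± 0.14, adjusted p = 0.00134). FGFR1 rose (0.46 ± 0.11, adjusted p = 0.00982) and PROS1, protein S (0.54 ± 0.10, adjusted p = 0.00264). PDGFB rose (0.79 ± 0.20) with a call lost without siControl 3 or siTAZ 1 (adjusted p of 0.0577 to 0.0638). FGFR4 fell (-0.63 ± 0.15) with a call lost without siControl 1 or siTAZ 3 (adjusted p of 0.069 to 0.071). Overlap with another listed gene applies to TCF7, DLL1, SOX2, FGF2 and FGFR1.

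**Figure D4:**
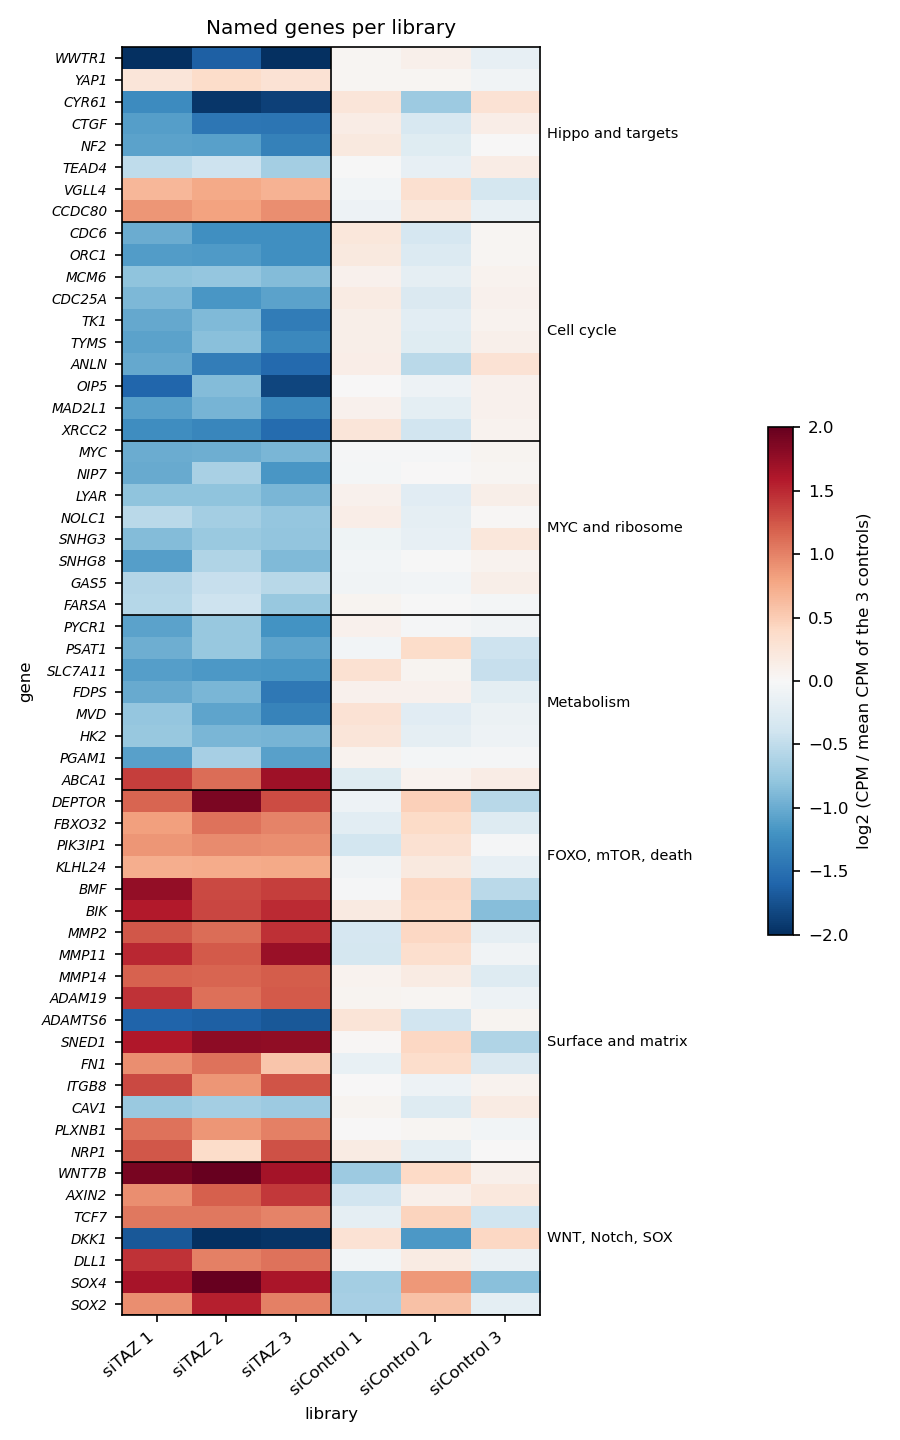
Log2 ratio of each library's CPM to the mean CPM of the 3 controls (colour, clipped at -2 and 2) for named genes in rows, grouped by role, and the 6 libraries in columns, siTAZ 1 to 3 on the left and siControl 1 to 3 on the right. Within the rows, siControl 2 departs from the other controls towards siTAZ for CYR61, DKK1, ANLN and SOX4, and siTAZ 2 is the palest siTAZ library for WWTR1 and NRP1.

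Signalling and stress programmes gave smaller counts. Immediate early factors had 5 of 30 higher (8 with the block) and 4 lower, the higher count being 3 without siControl 1, 3 without siControl 3 and 3 without siTAZ 3 and the lower count being 2 without siControl 1 and 2 without siTAZ 3. FOSL1, the AP-1 subunit FRA-1, had 173, 117 and 176 CPM under siTAZ, against 294, 215 and 338 CPM under siControl (-0.86 ± 0.19, adjusted p = 0.00702). MAFF fell (-0.84 ± 0.15, adjusted p = 0.00201). NR4A2, an orphan receptor, had 22, 24 and 20.9 CPM under siTAZ, against 10.9, 12.9 and 10.6 CPM under siControl (0.96 ± 0.15, adjusted p = 0.00132). JUNB rose (0.64 ± 0.13, adjusted p = 0.00495) and SPRY4, an inhibitor of receptor signalling (0.57 ± 0.12, adjusted p = 0.00415). NF-kB targets had 5 of 24 higher (8 with the block) and 2 lower, the higher count being 1 without siControl 1, 2 without siControl 3, 1 without siTAZ 1 and 2 without siTAZ 3 and the lower count being 0 without siControl 1 and 0 without siTAZ 3. Of the members called in either direction, ICAM1, which was higher, alone kept its call without each siTAZ or siControl library. TNFAIP3, the NF-kB inhibitor A20 (0.56 ± 0.15), and the chemokine CXCL16 (0.52 ± 0.14) were higher, and the adaptor TRAF2 (-0.37 ± 0.09) and the chemokine CXCL2 (-0.53 ± 0.15) lower. These calls were lost for TNFAIP3 without siControl 1, siControl 3, siTAZ 1 or siTAZ 3 (adjusted p of 0.055 to 0.0872), for CXCL16 without siControl 1, siControl 3, siTAZ 1 or siTAZ 3 (adjusted p of 0.0561 to 0.087), for TRAF2 without siControl 1 or siTAZ 3 (adjusted p of 0.0519 to 0.07) and for CXCL2 without siControl 1 or siTAZ 3 (adjusted p of 0.094 to 0.105). Under siYAP 9 of the list were lower and 1 higher, against 8.75% and 7.89% of all genes. In the direct test siTAZ lay above siYAP for 12 of 24, against 6.1% of all genes. Interferon and antigen presentation genes had 6 of 39 higher (12 with the block) and 6 lower, the higher count being 3 without siControl 1 and 11 without siTAZ 2 and the lower count being 1 without siControl 1, 2 without siControl 3, 3 without siYAP 3 and 2 without siTAZ 3. IRF1 rose (0.58 ± 0.13, adjusted p = 0.00676) and OASL (1.90 ± 0.43, adjusted p = 0.00746). IFITM2 fell (-0.44 ± 0.10, adjusted p = 0.00761), and CD274, PD-L1, fell (-0.98 ± 0.24) at 1.02 ± 0.15 CPM under siTAZ and 2.01 ± 0.375 CPM under siControl, a call lost without siControl 1 (adjusted p = 0.0607).

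NRF2 targets had 6 of 25 lower and 2 higher: TXNRD1, thioredoxin reductase, had 177, 139.6 and 145 CPM under siTAZ, against 279, 201 and 226 CPM under siControl (-0.61 ± 0.12, adjusted p = 0.00353), and UGDH (-0.55 ± 0.10, adjusted p = 0.00276) and OSGIN1 (-0.53 ± 0.11, adjusted p = 0.00562) fell beside SLC7A11, while ABCC3 rose. Nuclear respiratory chain genes had 9 of 39 lower (16 with the block) and 0 higher, the lower count being 4 without siControl 1, 4 without siTAZ 1 and 2 without siTAZ 3. CYCS, cytochrome c, had 42.7, 55.7 and 40.7 CPM under siTAZ, against 89, 72.6 and 81.5 CPM under siControl (-0.81 ± 0.12, adjusted p = 0.0011). NDUFS3, of complex I, fell (-0.43 ± 0.09, adjusted p = 0.00533), while COX5A (-0.33 ± 0.08), UQCRFS1 (-0.39 ± 0.10) and SDHB (-0.38 ± 0.10) fell, the calls lost for COX5A without siTAZ 3 (adjusted p = 0.0509), for UQCRFS1 without siTAZ 3 (adjusted p = 0.0828) and for SDHB without siControl 1, siTAZ 1 or siTAZ 3 (adjusted p of 0.065 to 0.107). Of 13 mitochondrially encoded transcripts edgeR called 0, DESeq2 0 and the block 1, 0 had an unadjusted p below 0.05, and the median was 0.06. Epithelial junction and keratin genes had 4 lower (7 with the block) and 3 higher (6 with the block) of 23, the lower count being 2 without siControl 1 and 2 without siTAZ 3 and the higher count being 1 without siControl 1, 5 without siControl 2, 1 without siControl 3 and 1 without siTAZ 3. KRT80 had 90.5, 78.3 and 87.8 CPM under siTAZ, against 118, 130.1 and 144 CPM under siControl (-0.61 ± 0.11, adjusted p = 0.00234). OCLN, occludin, fell (-0.58 ± 0.12, adjusted p = 0.00479). DSC2, a desmosomal cadherin, rose (0.88 ± 0.17, adjusted p = 0.00337). KRT18 fell (-0.37 ± 0.10) and PKP3 rose (0.35 ± 0.10), the calls lost for KRT18 without siControl 1, siTAZ 1 or siTAZ 3 (adjusted p of 0.0517 to 0.0813) and for PKP3 without siControl 1, siControl 3 or siTAZ 3 (adjusted p of 0.0636 to 0.103). Mesenchymal transition genes had 3 of 13 higher (7 with the block, 6 without siControl 2) and 0 lower (1 with the block), ACTA2 as given above, ZEB2 (0.54 ± 0.14), a call lost without siTAZ 3 (adjusted p = 0.0593), and FOXC1 (0.43 ± 0.12), lost without siControl 1, siControl 3 or siTAZ 2 (adjusted p of 0.0527 to 0.0864), while CDH2, N-cadherin, stood at 59.3, 45.4 and 49.98 CPM under siTAZ and 53.8, 41 and 53.8 CPM under siControl. Of 4 lung lineage genes tested, NKX2-1 was higher (1.42 ± 0.40) at 1.04 ± 0.213 CPM under siTAZ and 0.38 ± 0.235 CPM under siControl, a call lost without siControl 2, siTAZ 1 or siTAZ 3 (adjusted p of 0.0562 to 0.0834). Another listed gene overlaps MAFF, SPRY4, JUNB, TRAF2, CXCL16, IRF1, IFITM2, UGDH, TXNRD1, OSGIN1, NDUFS3, UQCRFS1, KRT80 and KRT18.

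Knockdown of the paralog YAP was the nearest experiment, and both were set against the same 3 controls, so the 2 sets of changes are not independent. Against those controls siYAP called 2625 genes (16.6%), 1244 higher (7.89%) and 1381 lower (8.75%). The direct test of siTAZ against siYAP called 1846 genes (11.7%), 963 higher (6.1%) and 883 lower (5.6%), or 3399 with the replicate block. That count was 1190 without siYAP 1, 856 without siYAP 3, 1120 without siTAZ 1 and 925 without siTAZ 3. YAP1 was higher (2.78 ± 0.15, adjusted p = 5.95e-07) and WWTR1 lower (-1.88 ± 0.28, adjusted p = 0.00104) under siTAZ. CYR61 fell under siYAP too (-1.38 ± 0.23, adjusted p = 0.00219), and its siTAZ minus siYAP difference of -0.27 ± 0.22 did not pass the test (adjusted p = 0.481), while CTGF was lower under siTAZ than under siYAP (-0.58 ± 0.13, adjusted p = 0.0136). Against siControl, kinetochore and spindle genes were lower in 57 of 59 under siTAZ (median -0.75) and in 59 under siYAP (median -0.96). Replication genes were lower in 49 of 52 under siTAZ (median -0.71) and in 41 under siYAP (median -0.46), and cyclins, CDKs and E2F factors in 25 of 37 under siTAZ and 22 under siYAP. Recombination and Fanconi genes were lower in 26 of 34 under siTAZ and 21 under siYAP, and nucleotide synthesis genes in 22 of 26 under siTAZ and 13 under siYAP. Of 29 metalloproteinase and inhibitor genes, siYAP raised 8 and lowered 2, and of 38 matrix genes it raised 8 and lowered 2. It raised 7 of 42 semaphorin and plexin genes and lowered 3, and raised 7 of 39 lysosome and autophagy genes and lowered 3. For replication genes 5 of 52 and for kinetochore genes 0 of 59 were lower under siTAZ than under siYAP by edgeR. In that direct test nucleotide synthesis had 8 lower and 0 higher, recombination and Fanconi genes 2 and 0, and cyclins, CDKs and E2F factors 6 and 4. Metalloproteinases had 2 lower and 8 higher, matrix genes 2 and 7, semaphorins and plexins 1 and 10, and lysosome and autophagy genes 2 and 4. CDC6 (-0.67 ± 0.13, adjusted p = 0.00484) and ORC1 (-0.75 ± 0.13, adjusted p = 0.00316) were among the replication genes lower under siTAZ than under siYAP.

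SERPINB7, an intracellular protease inhibitor of epithelia, had 0.652, 0.702 and 0.66 CPM under siTAZ, 14.6, 5.49 and 15 CPM under siYAP and 3.78, 2.44 and 2.97 CPM under siControl. It fell under siTAZ (-2.18 ± 0.44, adjusted p = 0.00408) and rose under siYAP (1.93 ± 0.31, adjusted p = 0.00204), with a direct difference of -4.11 ± 0.39, adjusted p = 0.0001001. VGF, a secreted neuropeptide precursor, had 152, 185 and 147 CPM under siTAZ, 718, 555 and 635 CPM under siYAP and 256, 260.1 and 207 CPM under siControl, a difference of -1.98 ± 0.13, adjusted p = 3.44e-06. LIN28B, an RNA-binding protein that blocks let-7 maturation, had 37.7, 44.8 and 42.3 CPM under siTAZ, 125, 86.7 and 102 CPM under siYAP and 82.2, 64.9 and 81.4 CPM under siControl (-1.33 ± 0.13, adjusted p = 0.000109). These 3 genes were called in opposite directions by the 2 siRNAs. APOE (-1.35 ± 0.17, adjusted p = 0.000345), CORO1A (-1.2 ± 0.21, adjusted p = 0.00326), SNCG (-1.77 ± 0.24, adjusted p = 0.000565) and LRRN4CL (-1.81 ± 0.23, adjusted p = 0.000372) were lower under siTAZ than under siYAP without a call against siControl under siTAZ. SYP, synaptophysin, was lower (-1.46 ± 0.30, adjusted p = 0.00733), and so were CD163L1 (-1.55 ± 0.21, adjusted p = 0.000642), NAP1L5 (-1.18 ± 0.16, adjusted p = 0.000565), FOXD1 (-1.13 ± 0.21, adjusted p = 0.00367) and SPINT2 (-1.15 ± 0.19, adjusted p = 0.00169).

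Genes higher under siTAZ than under siYAP included TGFBI, a matrix protein induced by TGF-beta, with 19.3, 24.7 and 17.5 CPM under siTAZ, 2.05, 6.19 and 1.19 CPM under siYAP and 8.59, 14.1 and 4.99 CPM under siControl, a difference of 2.73 ± 0.43, adjusted p = 0.00161. SOX4 had 16.6, 29.8 and 14.7 CPM under siYAP (2.24 ± 0.36, adjusted p = 0.00176), MMP10 3.26, 5.76 and 5.41 CPM (2.14 ± 0.22, adjusted p = 0.000137) and ADM 5.91, 5.55 and 4.13 CPM (1.63 ± 0.16, adjusted p = 0.000108), against the siTAZ levels given above. KITLG, the ligand of KIT (2.05 ± 0.33, adjusted p = 0.00158), SOX2 (1.72 ± 0.29, adjusted p = 0.00215), PMEPA1 (1.58 ± 0.23, adjusted p = 0.00107), CDKN2B (1.47 ± 0.15, adjusted p = 0.000134) and the circadian repressor NFIL3 (1.46 ± 0.17, adjusted p = 0.000236) were higher too. PLOD2, a lysyl hydroxylase of collagen, had 103, 76.8 and 92.2 CPM under siTAZ, 28.1, 39.5 and 25.4 CPM under siYAP and 118, 86 and 98 CPM under siControl (1.55 ± 0.16, adjusted p = 0.000137), and TNFRSF21, death receptor 6, differed likewise (1.55 ± 0.14, adjusted p = 9.26e-05). Neither PLOD2 (-0.15 ± 0.16, adjusted p = 0.519) nor TNFRSF21 (0.26 ± 0.14, adjusted p = 0.195) was called under siTAZ, whereas siYAP lowered PLOD2 (-1.70 ± 0.16, adjusted p = 0.000158) and TNFRSF21 (-1.29 ± 0.14, adjusted p = 0.000296). PRICKLE1 (1.61 ± 0.15, adjusted p = 0.000106), RNF141 (1.48 ± 0.17, adjusted p = 0.000234) and PLEKHG1 (1.46 ± 0.23, adjusted p = 0.0016) were higher under siTAZ as well. Against siControl, KITLG was called with the block alone (0.72 ± 0.30, adjusted p = 0.101, with the block 0.000605). Overlap with another listed gene applies to LIN28B, SNCG, CD163L1, APOE, NAP1L5, SPINT2, PRICKLE1 and PLEKHG1.

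**Figure D5:**
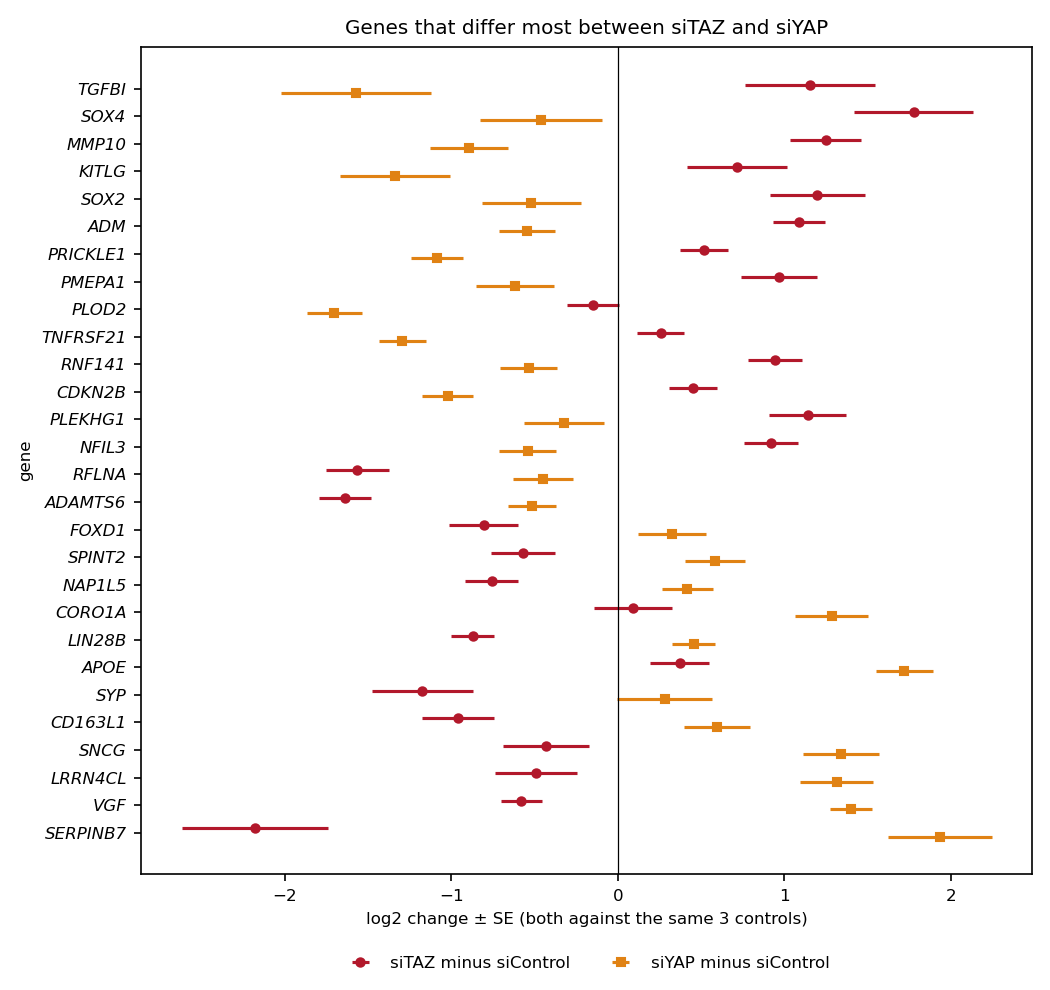
Log2 change ± SE (horizontal axis) of siTAZ minus siControl (red circles) and of siYAP minus siControl (orange squares) for the named genes with the largest differences between siTAZ and siYAP, one gene per row, YAP1 and WWTR1 left out. TGFBI, SOX4 and MMP10 lie to the right of 0 under siTAZ and to the left under siYAP, and SERPINB7, VGF and LIN28B the other way round, both sets of changes sharing the same 3 controls. SOX4 was not called under siYAP (-0.46 ± 0.37, adjusted p = 0.42 by edgeR).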

How the data were processed

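Poly(A) RNA of 9 H1299 libraries, 3 each of siTAZ, siYAP and siControl, was sequenced, and samples were grouped by their titles. Per the submitters' processing notes, reads were handled with cutadapt and STAR 2.4.2a on GRCh38 and compared with DESeq2. How reads were counted, and whether by strand, is not stated there or in the labels. The authors deposited whole-number counts per gene, and their table also holds log2 fold changes and p-values of their own comparisons, used only as a check. A DESeq2 refit returned their log2 values within 0.001 for 100% of 18978 genes.

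Counts of the 9 libraries were filtered with filterByExpr, scaled by TMM and fitted with edgeR 4.0.16 (quasi-likelihood test, Benjamini-Hochberg adjustment over all genes, calls at 0.05), which left 15775 genes. All siTAZ and siControl libraries held 16.8 to 19.2 M assigned reads. Alternatives were RLE scaling, no filter, DESeq2 1.42.0, the 6 libraries alone, the replicate number as a block, and leaving out each library or each replicate number. Libraries of the same number deviated together, with correlations of 0.108 to 0.383 between groups against -0.324 to 0.16 for different numbers. The main fit compared group means without this pairing, and the replicate block alone took it into account. SE, adjusted p and calls lost without a library are from the unpaired fit unless the block is named.

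Named genes were WWTR1, YAP1, the signature, the 25 largest called changes each way and the 10 largest changes in CPM each way among protein-coding genes of at least 5 CPM whose groups did not overlap and whose call held without any one library, up to 5 members per list, the 5 largest non-coding changes each way, the 15 largest differences each way between siTAZ and siYAP, and core components of lists chosen with their values known. Members and lists were chosen with earlier results of these data known. Gene positions and overlaps are from GENCODE 29 and promoters from RefSeq. Pairs of replicates differed by more than sampling noise (chi-square per degree of freedom 6.54 to 27.6). Some genes, and a list that goes with one, are not reported here.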

Additional observations from a re-analysis of the deposited data

How the results depend on the processing

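With RLE scaling and without the filter on low counts, all 303 named genes kept direction and side of the threshold, and with DESeq2 301 did, CCND1 being 1 of the 2 that passed there. The numbers called against siControl stayed within 1.5 times under these settings and with the 6 libraries alone. The replicate block gave 5606 calls, 2631 higher and 2975 lower, and for siTAZ against siYAP 3399, 1657 higher and 1742 lower. Against siControl the block brought 11 named genes past the threshold, and also KITLG, named for its difference from siYAP, the reported ones given beside their values, and it changed no other call. Leaving out libraries or replicate numbers gave 144 to 5267 calls, 82 to 2533 higher and 62 to 2734 lower, and for siTAZ against siYAP 190 to 2945, 123 to 1511 higher and 67 to 1434 lower. The lowest were without replicate 3, where 202 named genes lost their calls, against 107 without replicate 1 and 2 without replicate 2.

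Of 5149 recomputed values of named genes, 4669 kept direction and call, 439 lost the call, 27 gained one and 14 turned sign. Those that turned were uncalled genes near 0, whose ranges were -0.00 to 0.07 for LATS2, -0.11 to 0.29 for F3, -0.11 to 0.28 for FJX1, -0.14 to 0.07 for DOCK5, -0.03 to 0.15 for ARHGEF17 and -0.07 to 0.13 for NUAK2. The cause was not tested. The median change of all genes was 0.002 to 0.026 over settings. With 3 libraries a group, genes of few CPM such as BIK, NKX2-1 and CD274 rest on few reads.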

Other observations

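Apart from the small RNA host genes, non-coding transcripts averaging at least 2 CPM whose calls held without any one siTAZ or siControl library went in both directions. Among the lower ones, the long non-coding LINC00513 had 3.48, 5.16 and 3.81 CPM under siTAZ, against 9.05, 10.2 and 9.03 CPM under siControl (-1.18 ± 0.21, adjusted p = 0.00235), and AC099850.3 5.6, 7.62 and 4.26 CPM under siTAZ, against 10.1, 10.5 and 12.3 CPM under siControl (-0.91 ± 0.20, adjusted p = 0.007001). The processed pseudogene AC005077.4 had 1.52, 1.35 and 2.23 CPM under siTAZ, against 3.27, 3.22 and 3.37 CPM under siControl (-0.94 ± 0.23, adjusted p = 0.0117). The non-coding transcripts named here were picked among those whose groups did not overlap.

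Among the higher ones, LINC00886 had 11.4, 7.72 and 10.4 CPM under siTAZ, against 2.52, 3.75 and 2.36 CPM under siControl (1.77 ± 0.21, adjusted p = 0.000334), and HRAT92 3.59, 2.96 and 6.09 CPM under siTAZ, against 1.38, 1.37 and 0.954 CPM under siControl (1.77 ± 0.30, adjusted p = 0.00172). AL645608.1 had 6.36, 5.82 and 6.75 CPM under siTAZ, against 1.49, 3.33 and 1.68 CPM under siControl (1.54 ± 0.25, adjusted p = 0.00133), and AC067931.2 4.3, 3.66 and 3.4 CPM under siTAZ, against 1.38, 1.61 and 1.07 CPM under siControl (1.49 ± 0.22, adjusted p = 0.000965). The pseudogene AL354751.1 rose as well (1.45 ± 0.29, adjusted p = 0.00411). These values are log2 changes of siTAZ minus siControl with their SE by edgeR. LINC00513 lies opposite LINC-PINT, AC099850.3 opposite PRR11, AL645608.1 opposite ISG15 and AC067931.2 opposite AGO2. LINC00886 shares its strand with PA2G4P4. Reads of such overlapping genes cannot be told apart.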
